A study of Mus musculus with 281 samples.

Results

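The two-pore-domain potassium (K2P) channel genes Kcnk1, Kcnk2, Kcnk3, Kcnk5, Kcnk6, Kcnk10 and Kcnk13 were followed across the cell types and genotypes of the mouse stria vascularis, the epithelium of the cochlear lateral wall that secretes the potassium-rich endolymph. They were chosen by symbol, as 7 of the 47752 genes in the deposited gene table and 7 of its 14 Kcnk genes. K2P subunits assemble as pairs and conduct a background, or leak, potassium current that is open over a wide range of voltages, and members of the family differ in what modulates this leak, such as pH, membrane stretch, lipids or volatile anaesthetics. In the stria vascularis, potassium channels and pumps of the intermediate cells (IMCs) and marginal cells (MCs) together generate the endocochlear potential, while spindle cells (SCs) and root cells (RCs) border the stria and carry the anion exchanger pendrin, the product of Slc26a4.

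Single cells were collected from 129S6 mice by micropipette after collagenase digestion of the tissue and sequenced by the full-length Smart-Seq2 method, 1 cell per library. Of the analysed cells, 40 were from mice with 1 disrupted Slc26a4 allele (Slc26a4+/-), 69 from mice with neither allele intact (Slc26a4-/-, the model of Pendred syndrome) and all others from wild-type mice (WT). The mice were 22 to 44 days old, the allele is lost from every tissue and not from the stria alone, and cells were picked by hand, so that cell numbers are not tissue proportions. No cell was assigned to a mouse in the labels, so that each genotype counted as 1 sample, cells were not replicates, and comparisons of means carried no p-value.

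The cells held between 1848 and 7932729 estimated counts (median 1312950), and 20 WT cells held under 100000. The libraries carried 4 run dates, with median depths from 291155 to 2346920 counts, and all Slc26a4+/- cells had the last of these, which the other genotypes shared in part. Clustering without any Kcn gene gave 91 IMC-like cells and 21 MC-like cells, beside 33 SC-like cells and 36 RC-like cells. A further 83 cells led by the erythroid anion exchanger gene Slc4a1 and 17 cells led by Crhbp kept no cell type name. The name IMC-like rested on melanocyte-lineage genes such as the pigment enzyme gene Dct (47865.9 CPM in IMC-like cells, where CPM are counts scaled to the same total in every cell). The Slc4a1-led cells also carried Dct, at 23684.8 CPM. Of these cells 60.2% scored highest as IMC-like among the 4 types, below the 80% that a name required. Slc26a4 itself did not separate the labels: it averaged 968.5 CPM in WT and 793.4 CPM in Slc26a4-/- SC-like and RC-like cells, here together called pendrin cells, and 26 of 39 WT and 11 of 22 Slc26a4-/- pendrin cells held at least 10 counts. A count over the whole gene need not show the loss of a part of it, so the level neither bears out nor contradicts the labels.

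A cell was counted as holding a transcript at 10 or more counts, and a gene as present where its mean over the cells of a type was at least 10 CPM. In WT cells of the 4 named types 2 of the 7 genes reached that mean, against 23.8% of all genes: Kcnk1 and Kcnk5. Kcnk13 reached it in Slc26a4-/- cells, and Kcnk6 in 1 small group. Kcnk2, Kcnk3 and Kcnk10 stayed below it in every named type and genotype. The map of mean CPM shows this layout.

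**Figure D1:**
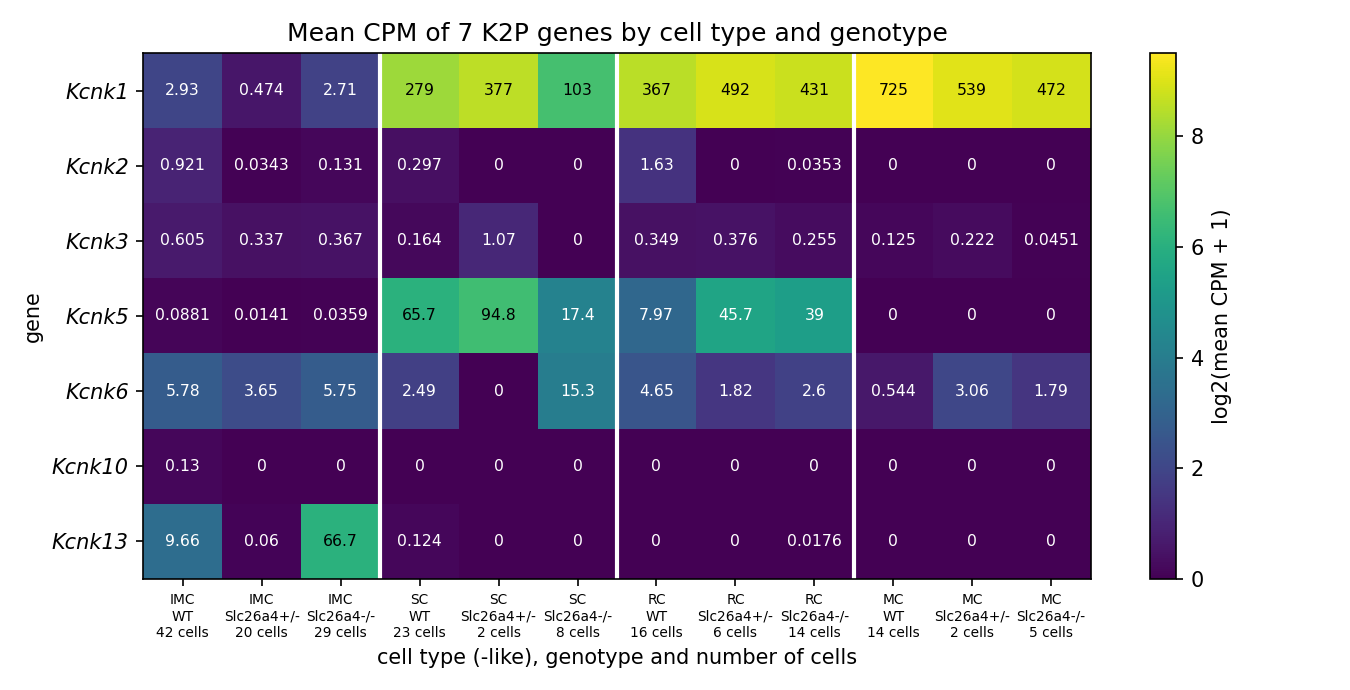
Mean CPM of the 7 K2P channel genes (rows) in the 4 named cell types of each genotype (columns); colour follows log2(CPM + 1). Kcnk1 fills the SC-like, RC-like and MC-like columns, where WT means were 278.6, 366.6 and 725.3 CPM, Kcnk5 appears in SC-like and RC-like cells, and Kcnk13 stands out in Slc26a4-/- IMC-like cells at 66.72 CPM.

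The sequences just upstream of the start of the 3 genes with the clearest cell-type pattern are shown because they differ in base composition. They were read 5′ to 3′ on the strand of the gene from RefSeq (GRCm38.p6) and cover the 250 bases before the start. Capitals mark GGGCGG, the GC box. The positions were chr8:125994852-125995101 on the plus strand for Kcnk1, chr14:20181783-20182032 on the minus strand for Kcnk5, and chr12:99964249-99964498 on the plus strand for Kcnk13.
Kcnk1: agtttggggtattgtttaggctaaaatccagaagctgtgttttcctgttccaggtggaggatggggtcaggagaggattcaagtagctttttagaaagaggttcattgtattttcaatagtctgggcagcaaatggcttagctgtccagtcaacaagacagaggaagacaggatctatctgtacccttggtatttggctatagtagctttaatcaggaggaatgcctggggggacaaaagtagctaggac
Kcnk5: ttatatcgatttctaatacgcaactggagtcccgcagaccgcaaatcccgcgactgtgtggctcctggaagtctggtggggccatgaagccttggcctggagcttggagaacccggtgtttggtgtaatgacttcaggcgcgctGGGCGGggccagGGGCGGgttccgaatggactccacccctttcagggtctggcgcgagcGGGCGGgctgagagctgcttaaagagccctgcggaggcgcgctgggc
Kcnk13: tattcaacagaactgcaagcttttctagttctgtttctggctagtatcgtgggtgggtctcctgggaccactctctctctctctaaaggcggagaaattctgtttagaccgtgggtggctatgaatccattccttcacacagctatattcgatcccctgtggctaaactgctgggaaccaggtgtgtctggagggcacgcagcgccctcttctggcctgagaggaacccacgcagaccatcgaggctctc
The Kcnk5 window was 62.8% G or C and held 19 CG pairs and 3 GC boxes, the nearest 42 bases from the start. The Kcnk1 window was 44.4% G or C with 0 CG pairs, and the Kcnk13 window 52.8% with 8. Over 32851 promoter windows the median was 52.4% G or C with 6 CG pairs, and 32.7% held a GC box on either strand. None of the 3 windows held CACGTG or CATGTG (E-boxes bound by basic helix-loop-helix factors, in 6.02% and 12.3% of windows), AAGGTCA (the half-site of estrogen-related receptors, in 4.08%) or TATAAA (12.4%) on either strand, which says only that these letters are not in the windows. Of the 7 genes, 5 had an entry in the table, and Kcnk3 and Kcnk6 did not.

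Kcnk1 encodes TWIK-1, a weakly inward-rectifying K2P channel that responds to extracellular pH. Of the 7 genes it had 10 or more counts in the most cells, 82. Its WT mean was highest in MC-like cells (725.3 CPM, 14 cells), followed by RC-like cells (366.6 CPM, 16 cells) and SC-like cells (278.6 CPM, 23 cells), and it was 2.927 CPM in the 42 IMC-like cells. It was at least 2-fold higher in each epithelial type than in IMC-like cells, as were 7.32% of the genes present in WT. The transcript was thus carried by the epithelial types and was scarce in the melanocyte-like type.

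Within each epithelial type most WT cells held it: 13 of 14 MC-like, 12 of 16 RC-like and 18 of 23 SC-like cells, against 2 of 42 IMC-like cells. The 95% exact binomial intervals of these shares were 66.1 to 99.8%, 47.6 to 92.7%, 56.3 to 92.5% and 0.582 to 16.2%. Such intervals cover counting error only, and reads without molecular identifiers are not independent molecules. With every cell thinned to 100000 counts the shares of cells with a count were 92.9%, 86.7%, 85.7% and 7.14%, so that the difference between the IMC-like and the other types was as large at equal depth.

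The level differed widely between cells of 1 type. Among WT cells with 10 or more counts, MC-like cells ran from 178.1 to 1541.9 CPM, RC-like cells from 33.56 to 1471.8 CPM and SC-like cells from 81.11 to 766.2 CPM. The 3 ranges overlap over most of their length, as the plot of single cells shows. In IMC-like cells the median was 0.387 CPM and the highest cell reached 61.9 CPM, below the lowest of the SC-like and MC-like cells that held the transcript.

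**Figure D2:**
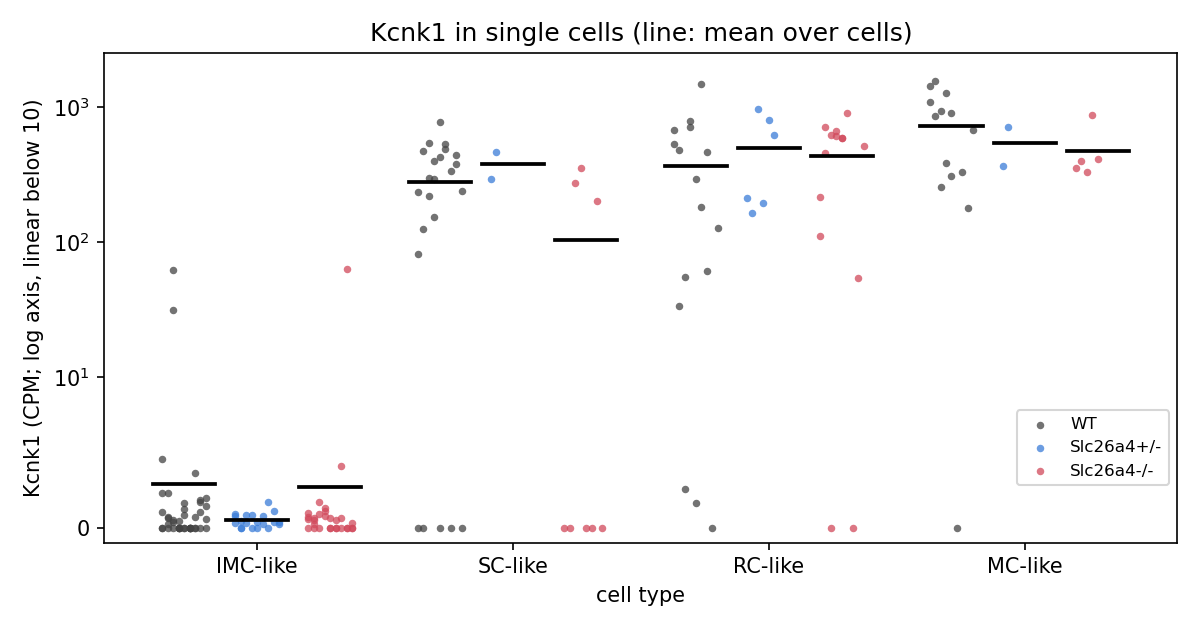
Kcnk1 in single cells (points, CPM on a log axis that is linear below 10) by cell type and genotype, with lines at the means. All but 3 IMC-like cells lie below 10 CPM, while the 3 epithelial types spread over ranges that overlap, with WT means of 725.3 CPM in MC-like, 366.6 CPM in RC-like and 278.6 CPM in SC-like cells.

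The order among the 3 epithelial types was not separated by the spread between collection sessions, the groups of cells that share a day number, age, genotype and run date in their labels. Over WT sessions with at least 2 cells of a type MC-like cells averaged 229.9, 393.6 and 808.1 CPM in 3 sessions. RC-like cells averaged 245.6 ± 111.6 CPM (SD, n = 3 sessions) and SC-like cells 204.4 ± 89.07 CPM (n = 4). The gap to IMC-like cells, at 4.207 ± 9.113 CPM (n = 13), was of another size. In the 4 sessions that held both SC-like and IMC-like cells, Kcnk1 was higher in the SC-like cells in 4 of 4, by 7.16 on the log2 scale (SD 0.73). The exact sign-flip permutation test gave p = 0.125, two-sided, the smallest p that 4 sessions allow.

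The order also changed with run date. WT MC-like cells averaged 1145.4, 406.7 and 779.5 CPM in the first, the second and the third run dates. WT RC-like cells averaged 553.3, 462.4, 208.3 and 250.2 CPM over the 4 run dates, and WT SC-like cells 221.1, 580.7, 275.6 and 149.9 CPM. SC-like cells were therefore the higher of the pendrin cell types in the second and the third run dates and the lower in the others.

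Kcnk5 encodes TASK-2, a K2P channel opened by alkaline pH and known from bicarbonate-transporting epithelia. It was found in few cells, 19 with 10 or more counts, and its WT mean was highest in SC-like cells at 65.72 CPM. Its mean was 7.967 CPM in RC-like cells, 0.088 CPM in IMC-like cells and 0 in all 14 WT MC-like cells, which allows up to 21.4% of such cells to hold it. Such limits, here and below, are approximate: 3 divided by the number of cells, with cells taken as independent. The exact binomial interval here ran to 23.2%. By 2-fold or more SC-like cells were the top type for 8.38% of the genes present in WT.

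The SC-like mean rested on 6 of 23 cells, 26.1% (10.2 to 48.4), whose levels ran from 11.68 to 660.4 CPM. A single cell supplied 43.7% of the SC-like total. Only 1 of the 4 SC-like sessions was above 2.92 CPM, at 79.63 CPM, and the session mean was 20.91 ± 39.16 CPM (n = 4). The log2 ratio of SC-like to RC-like cells was 2.90, and 5.38 without the first run date. Most WT SC-like cells thus held fewer than 10 counts of Kcnk5.

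Of the 8 WT pendrin cells that held Kcnk5, 7 had 10 or more counts of Kcnk1 and 7 of Slc26a4, where 30 and 26 of all 39 WT pendrin cells did. Kcnk18, which encodes the calcineurin-regulated channel TRESK, was in 0 of these 8 and in 8 of all 39. Corrected for transcript length, as TPM, the WT SC-like means were 173.7 for Kcnk1 and 26.56 for Kcnk5.

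Kcnk13 encodes THIK-1, a halothane-inhibited K2P channel best known from microglia. It was at 10 or more counts in 20 cells, 18 of them with a cell type name, and these 18 were all IMC-like. No SC-like, RC-like or MC-like cell of any genotype reached 10 counts. In the 39 WT pendrin cells this allows a share of up to 7.69%, and in the 14 WT MC-like cells of up to 21.4%. The other 2 cells were WT cells of the Slc4a1-led cluster, the higher at 352.7 CPM. Of all Kcnk13 counts, 69.7% were assigned to 1 of its transcripts.

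Kcnk6 encodes TWIK-2, a relative of TWIK-1, and was widespread but low, with 10 or more counts in 60 cells. Its WT means were 5.775 CPM in IMC-like, 4.651 in RC-like, 2.486 in SC-like and 0.544 in MC-like cells. It passed 10 CPM in 1 named group, the 8 SC-like cells labelled Slc26a4-/-, at 15.31 CPM, where 3 of the 8 held 10 or more counts.

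The remaining members were close to absent from the named types. Kcnk3, which encodes the acid-sensitive channel TASK-1, had a count in 55 cells, at most 26 in a cell, and stayed at or below 1.07 CPM in each named group. Kcnk2, which encodes the stretch- and lipid-gated channel TREK-1, averaged 1.631 CPM in WT RC-like cells and 0.921 CPM in WT IMC-like cells. Of its 10474 counts, 10390 came from 1 WT cell of the Slc4a1-led cluster at 5122.9 CPM. Kcnk10, which encodes the related TREK-2, had 3 counts in 1 WT IMC-like cell.

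The comparison of genotypes asks which transcripts differ where pendrin is missing. A gene was compared where its mean was at least 10 CPM in either genotype, and was called when the ratio of means, with 1 CPM added to each, was 2-fold or more. In IMC-like cells Kcnk13 was the 1 member at that level, and it was higher in cells labelled Slc26a4-/-: 66.72 CPM (29 cells) against 9.657 CPM in WT (42 cells) and 0.060 CPM in Slc26a4+/- (20 cells). The log2 ratio of Slc26a4-/- to WT was 2.67. Among all genes compared 12.5% were called higher and 17.5% lower, with a median log2 ratio of -0.12.

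The difference lay in how many cells held the transcript. In Slc26a4-/- IMC-like cells 15 of 29 held Kcnk13, 51.7% (32.5 to 70.6), at 13.09 to 334.3 CPM with a median of 89.25 CPM. In WT it was 3 of 42, 7.14% (1.5 to 19.5), at 65.6, 137.4 and 200.7 CPM, so that the WT cells that held it lay inside the Slc26a4-/- range. In Slc26a4+/- it was 0 of 20 (0 to 16.8%).

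**Figure D3:**
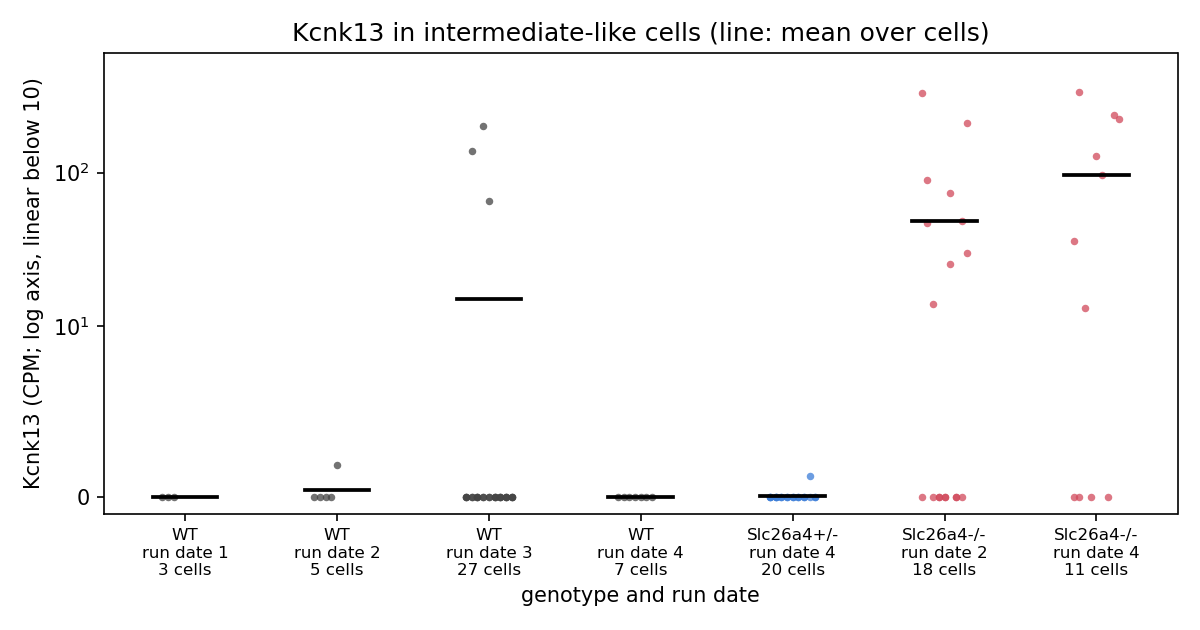
Kcnk13 in single IMC-like cells (points, CPM on a log axis that is linear below 10), by genotype and run date. Of the Slc26a4-/- cells, 8 of 18 in the second and 7 of 11 in the fourth run date held 10 or more counts; the 3 WT cells that did all had the third run date, and 0 of 20 Slc26a4+/- cells, all of the fourth run date, did. Lines mark means.

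The difference held within both run dates that WT and Slc26a4-/- IMC-like cells shared. In the second run date the mean was 48.3 CPM in 18 Slc26a4-/- cells and 0.371 CPM in 5 WT cells. In the fourth it was 96.85 CPM in 11 Slc26a4-/- cells, with 7 WT cells at 0 and 0 of 20 Slc26a4+/- cells at 10 counts. The log2 ratios to WT were 5.17 and 6.61. The 0 of 7 WT cells allow a share of up to 42.9%. Age was not matched in the second run date: 3 of the 5 WT cells came from 1 session at 42 days. The Slc26a4-/- sessions there ran from 24 to 44 days. In the fourth run date the WT and Slc26a4-/- sessions both ran from 29 to 34 days.

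By session the Slc26a4-/- means ran from 0 to 159.4 CPM with a median of 34.37 CPM, or 63.79 ± 61.4 (SD, n = 7). The 13 WT sessions averaged 11.62 ± 28.53 CPM, and 3 of them were above 1 CPM, at 16.4, 34.35 and 100.4 CPM. The sessions of the 2 genotypes thus overlap: counting sessions of any size, a cell that held Kcnk13 was present in 6 of 9 Slc26a4-/-, 3 of 15 WT and 0 of 4 Slc26a4+/- sessions.

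With sessions taken as samples, which the labels do not state to be separate mice, the 7 Slc26a4-/- and 4 WT sessions of the shared run dates differed by 5.46 on the log2(CPM + 1) scale. The exact permutation test within run dates gave p = 0.0333, two-sided and before any correction for 30 such tests, where the 60 arrangements allow no p below 0.0167. The mean was above 0 in 6 of 7 Slc26a4-/- and 0 of 4 WT sessions. The quasi-likelihood test of edgeR over all genes gave p = 0.00332 and an adjusted p of 0.438, whereas DESeq2 gave an adjusted p of 1.21e-20. Over all genes edgeR called 3 and DESeq2 482. The 2 methods differed in the call, and since the WT sessions of the shared run dates were all at 0, neither fitted fold change is a bound.

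Other measures were read beside this difference. Of the 15 Slc26a4-/- cells that held Kcnk13, 0 had 10 or more counts of any of the macrophage markers Ptprc, Csf1r, Cx3cr1 and C1qa, whose sum ran from 0 to 12.7 CPM (median 0.497). Of the 3 WT cells, 1 held Csf1r, with a sum of 242.3 CPM. The log2 ratio was 3.52 without cells that held a macrophage marker, a setting added once the values were known. The median depth was 2117764 counts in the Slc26a4-/- cells that held Kcnk13, 1238417 in the other Slc26a4-/- cells, 1432966 in WT and 2484303 in Slc26a4+/- IMC-like cells. At 100000 counts per cell, 55.2% of Slc26a4-/- and 7.14% of WT IMC-like cells had a count. The summed level of the intermediate cell markers was also higher in Slc26a4-/- cells, at 71827.1 CPM against 44681.6 in WT, and was highest in Slc26a4+/- at 80673.4. The summed red cell and granulocyte markers had a median of 19.5 CPM in WT cells that held Kcnk13, 22.4 CPM in the other WT cells, and 0.3 CPM in both Slc26a4-/- and Slc26a4+/- IMC-like cells. The part of these marker levels in the result was not tested.

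Kcnk1 and Kcnk6 did not reach 10 CPM in IMC-like cells of any genotype. Kcnk1 was at 2.712 CPM in Slc26a4-/-, 0.474 CPM in Slc26a4+/- and 2.927 CPM in WT. Kcnk6 averaged 5.751 and 3.653 CPM, against 5.775 CPM in WT. For Kcnk13 in Slc26a4+/- IMC-like cells, at a mean of 0.060 CPM, DESeq2 over sessions gave an adjusted p of 0.0311 and edgeR of 1. DESeq2 fitted it as higher than WT, at a log2 fold change of 16.56, although the WT mean over all run dates was 9.657 CPM. In the fourth run date 1 of 20 Slc26a4+/- cells had a count, at 1.199 CPM, and WT was at 0, so that the fitted size is no bound. No member was at the level for comparing Slc26a4+/- with WT IMC-like cells, where 29.4% of all genes compared were called; these comparisons share their WT cells.

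In pendrin cells, Kcnk1 and Kcnk5 were at the level and 0 of the 2 were called in either comparison. Of all genes compared, 15.5% were called higher and 22.2% lower in Slc26a4-/- pendrin cells, and 19.4% higher and 27.8% lower in Slc26a4+/- pendrin cells. The mean of Kcnk1 was 311.7 CPM over 22 Slc26a4-/-, 463.5 CPM over 8 Slc26a4+/- and 314.7 CPM over 39 WT pendrin cells. The log2 ratios to WT were -0.01 for Slc26a4-/- and 0.56 for Slc26a4+/-, with 15 of 22, 8 of 8 and 30 of 39 cells holding it. In the same order Kcnk5 averaged 31.17, 57.98 and 42.03 CPM, at log2 ratios of -0.42 and 0.46, with 5 of 22, 3 of 8 and 8 of 39 cells holding it.

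The makeup of the pendrin cells differed between genotypes, with 23 SC-like and 16 RC-like cells in WT, 2 and 6 in Slc26a4+/-, and 8 and 14 in Slc26a4-/-. Taken apart, in a setting added once the values were known, the ratios for Slc26a4-/- had opposite signs in SC-like and RC-like cells over all run dates. In SC-like cells Kcnk1 was lower in Slc26a4-/- (102.9 CPM, 3 of 8 cells) than in WT (278.6 CPM, 18 of 23 cells), a log2 ratio of -1.43, and 57.2% of all genes were called there. In RC-like cells it was 431.0 CPM in Slc26a4-/- (12 of 14 cells) against 366.6 CPM, a log2 ratio of 0.23, where 50.8% of all genes were called. All 8 Slc26a4-/- SC-like cells had the second run date, against 7 of the 14 RC-like cells. Within that run date Kcnk1 was lower in Slc26a4-/- in both types, at 102.9 against 580.7 CPM in 2 WT SC-like cells and at 416.7 against 462.4 CPM in 1 WT RC-like cell, so that cell type and run date cannot be told apart in this split. In Slc26a4+/- cells Kcnk1 was higher than in WT in both types, at 377.1 CPM in SC-like and 492.3 CPM in RC-like cells.

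Over all run dates Kcnk5 had the same signs. It was 17.42 CPM in Slc26a4-/- SC-like cells (2 of 8) against 65.72 CPM in WT (6 of 23), a log2 ratio of -1.86, and 39.03 CPM in Slc26a4-/- RC-like cells (3 of 14) against 7.967 CPM (2 of 16), a ratio of 2.16. The Slc26a4+/- RC-like cells averaged 45.73 CPM (2 of 6), a ratio of 2.38, where 57.7% of all genes were called, and the 2 Slc26a4+/- SC-like cells 94.75 CPM. Within the second run date the WT cells of both types were at 0, so that Slc26a4-/- was the higher in SC-like (17.42 CPM) and in RC-like cells (43.58 CPM), and the lower SC-like value does not hold there. Kcnk6 was at the level in SC-like cells alone, and only by its Slc26a4-/- mean. That mean, 15.31 CPM, was higher than in WT (2.486 CPM), a log2 ratio of 2.23, where 57.2% of all genes were called. It rested on 3 of 8 cells that held the transcript, at 14.47, 26.6 and 73.55 CPM, against 2 of 23 in WT. The median over the 8 cells was 3.931 CPM, so that the mean rested mainly on the highest cell. Each of these Kcnk5 means rests on at most 6 cells that held the transcript. That the genotype effect differs between the cell types was not tested.

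**Figure D4:**
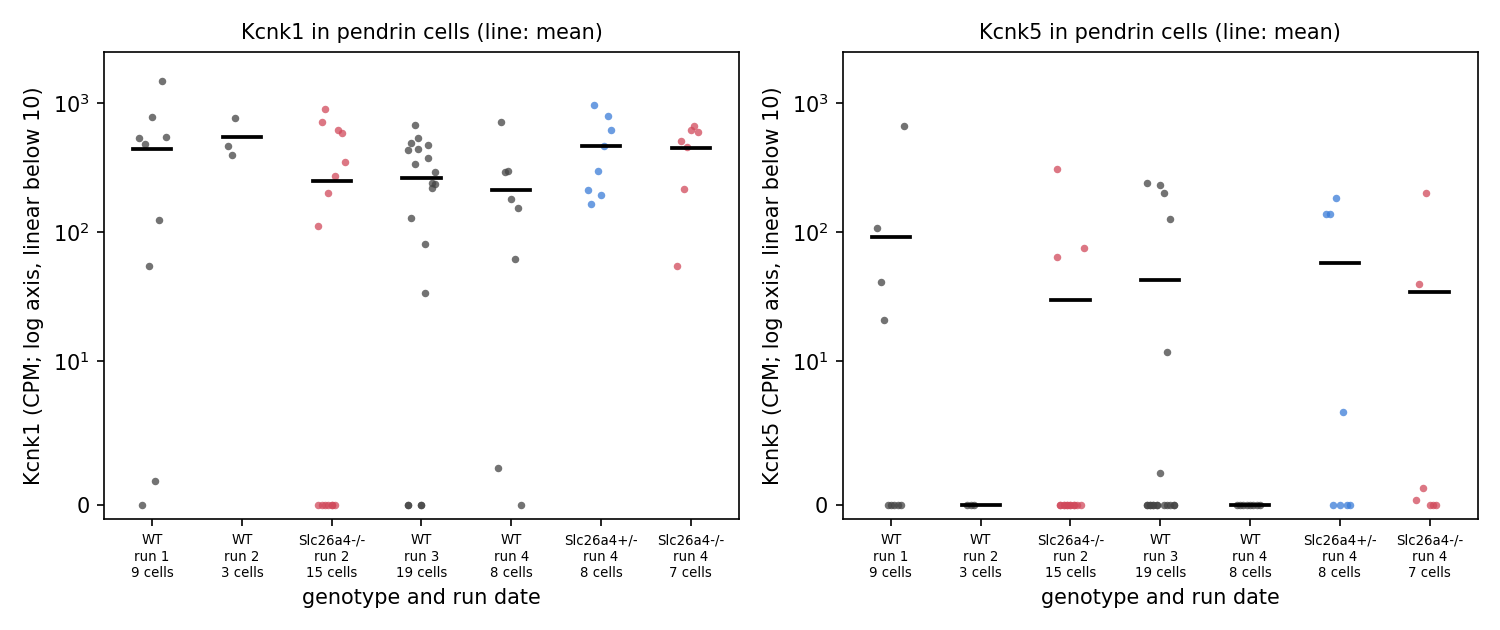
Kcnk1 and Kcnk5 in single pendrin cells (points, CPM on a log axis that is linear below 10) by run date and genotype. Kcnk1 in Slc26a4-/- cells lies below WT in the second run date (249.3 against 541.3 CPM) and above it in the fourth (445.3 against 212.6 CPM), and no WT cell of these run dates held Kcnk5; lines mark means.

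The direction for Kcnk1 differed between the shared run dates. In the second run date it averaged 541.3 CPM in 3 WT and 249.3 CPM in 15 Slc26a4-/- pendrin cells, a log2 ratio of -1.12, and the median depth was 1239083 and 561315 counts. In the fourth it averaged 212.6 CPM in 8 WT and 445.3 CPM in 7 Slc26a4-/- pendrin cells, a log2 ratio of 1.06. The joint ratio near 0 thus stood beside ratios of opposite sign in the shared run dates. The exact permutation test over sessions within run dates gave p = 0.367 (4 against 4 sessions, two-sided, with no p below 0.0333 possible). Cell types differed as well. In the second run date WT had 2 SC-like and 1 RC-like cells, and Slc26a4-/- had 8 and 7. In the fourth WT had 3 and 5, and all 7 Slc26a4-/- cells were RC-like. The parts of run date, cell type and depth were not tested.

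For Kcnk5, WT pendrin cells averaged 92.06, 0, 42.65 and 0 CPM over the 4 run dates, so that WT was at 0 in both run dates it shared with the other genotypes. In those run dates Slc26a4-/- cells averaged 29.63 CPM (3 of 15 cells) and 34.49 CPM (2 of 7), and Slc26a4+/- cells 57.98 CPM (3 of 8). The WT cells there numbered 3 and 8, and 0 of 8 allows a share of up to 37.5%. Over sessions the exact permutation test gave p = 0.467 for Slc26a4-/-, with no p below 0.0333 possible, and p = 0.1 for Slc26a4+/- (two-sided, uncorrected). The latter is the smallest p that 2 against 3 sessions allow. No difference was detected at these cell numbers, and for Slc26a4+/- the test could not have given a lower p.

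In MC-like cells Kcnk1 was at 472.4 CPM in Slc26a4-/- (5 of 5 cells holding it), at 539.1 CPM in the 2 cells of Slc26a4+/- and at 725.3 CPM in WT (13 of 14). The log2 ratio of Slc26a4-/- to WT, -0.62, was below the fold that counts as a call, which 26.1% of all genes compared passed upward and 26.4% downward. The Slc26a4-/- mean also lay between the lowest and the highest WT session. The second was the only run date that MC-like cells of both genotypes shared. There Kcnk1 averaged 376.7 CPM in 2 Slc26a4-/- and 406.7 CPM in 4 WT cells.

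Of the other 7 genes of the family only Kcnk18 reached 10 CPM in a named type. It averaged 67.53 CPM in WT SC-like cells (8 of 23 cells) and 14.46 CPM in WT MC-like cells (1 of 14). In pendrin cells it averaged 3.783 CPM in Slc26a4-/-, 0 in Slc26a4+/- and 39.82 CPM in WT. A single WT cell at 995.7 CPM supplied 64.1% of the WT total, and without it the WT mean was 14.67 CPM. In the second run date WT was at 0 and Slc26a4-/- at 5.548 CPM. In the fourth a WT cell held it at 125.9 CPM, while the 1 Slc26a4-/- pendrin cell that held it had the second run date. Over sessions within run dates the difference was -0.03 on the log2 scale (exact permutation test, p = 0.867), an average over these opposite directions. Kcnk12 was found in 6 cells of the Slc4a1-led cluster, Kcnk4 and Kcnk7 in traces, and Kcnk9, Kcnk15 and Kcnk16 were at 0.

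The other genes of potassium handling in the lateral wall showed where these cell types stand. All 19 listed genes were present in a WT named type, against 23.8% of all genes. Of the 19, 9 were highest in MC-like, 6 in IMC-like, 4 in RC-like and 0 in SC-like cells. By 2-fold or more, SC-like cells were the top type for 8.38% of the genes present in WT. Shares of all genes for the other types are not given here, so that the counts describe the list only. MC-like cells led in the sodium pump subunit gene Atp1b2 (11474.9 CPM) and in Kcnq1 (2372.4 CPM) and Kcne1 (4361.2 CPM), whose products form the channel that secretes potassium into endolymph. IMC-like cells led in Kcnj10, the inward rectifier of the endocochlear potential (3288.5 CPM), and RC-like cells in its partner Kcnj16 (353.5 CPM).

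Between genotypes, 0 of 11 potassium genes compared in IMC-like cells were called higher and 3 lower in Slc26a4-/- (median log2 ratio -0.28, against -0.12 for all genes, of which 12.5% and 17.5% were called). In pendrin cells 5 of 15 were called higher and 5 lower (median 0.24, against -0.13 for all genes, of which 15.5% and 22.2% were called). The connexin genes Gjb2 and Gjb6 were among the higher ones, at log2 ratios of 2.57 and 1.83, and Kcne1 among the lower, at -6.5. Both connexin genes were higher in RC-like than in SC-like WT cells (Gjb2 229.9 against 18.23 CPM), and RC-like cells made up more of the Slc26a4-/- pendrin cells. They were also higher within RC-like cells, at log2 ratios of 2.09 and 1.49, and lower within SC-like cells, at -0.45 and -0.79. The WT pendrin mean of Kcne1, 134.4 CPM, stood over a median of 1.099 CPM, so that few cells carried it, and its IMC-like mean was lower as well, at 5.088 against 57.3 CPM. In Slc26a4+/- pendrin cells 2 of 16 were called higher and 8 lower (median -1.01, against -0.10 for all genes, of which 19.4% and 27.8% were called), and in IMC-like cells 2 of 12 higher and 4 lower (median -0.15, against -0.12, with 29.4% called in either direction). In MC-like cells 0 of 13 were called higher and 3 lower in Slc26a4-/- (median 0.02, equal to that of all genes, of which 26.1% and 26.4% were called).

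Genes for proteins that traffic or modulate K2P channels were spread over the types. Of 11 listed, 9 were present in a WT named type, against 23.8% of all genes. Of the 9, 4 were highest in SC-like cells, 2 of them by 2-fold or more, as were 8.38% of all genes present in WT. With 9 genes such counts describe the list only. The 2 genes were S100a10, which encodes the annexin partner p11 (169.7 CPM, log2 ratio 2.56 to the next type), and the syntaxin gene Stx8 (153.8 CPM, 1.46). Arf6, a small GTPase of endosomal recycling, was highest in MC-like cells (616.8 CPM), and the 14-3-3 gene Ywhab (521.6 CPM) and the sorting receptor gene Sort1 (402.9 CPM) in IMC-like cells. In IMC-like cells 0 of 9 were called higher and 1 lower in Slc26a4-/- (median -0.40; all genes 12.5% and 17.5%), and in pendrin cells 1 of 10 higher and 0 lower (median -0.10; all genes 15.5% and 22.2%). In Slc26a4+/- cells 0 of 9 were called higher and 2 lower in IMC-like cells (median -0.66; all genes 29.4% in either direction) and 1 of 9 higher and 1 lower in pendrin cells (median 0.20; all genes 19.4% and 27.8%). In MC-like cells 2 of 8 were called higher and 2 lower in Slc26a4-/- (median 0.47), close to the 26.1% and 26.4% of all genes.

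Over the 23 groups of WT cells of 1 named type and 1 session, the genes whose log2(mean CPM + 1) followed Kcnk1 most closely among 11338 genes were Prom2 (Pearson r = 0.975), Fgfr2 (0.961) and Tmem30b (0.944). These groups share sessions and depth, so that r is a description across groups. For Kcnk5 they were Islr (0.964), Fam129a (0.962) and Gm8439 (0.951). Kcnk5 was above 2.92 CPM in 1 of these groups, the SC-like session at 79.63 CPM, on which these values mainly rest.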

How the data were processed

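Smart-Seq2 libraries of single cells were analysed. The authors quantified reads with Kallisto on GRCm38 (mm10; annotation release not given in the sources used here), and deposited estimated counts and TPM per transcript for each cell and a gene table of estimated counts. Of its cell columns, 17 match no sample here and were not used. Counts were divided by each cell's total (CPM); TPM as deposited was summed per gene. The genes and lists were chosen with earlier results of these data known. The text names the 7 members, other Kcnk genes at 10 CPM in a named type, the 3 genes most correlated with each member at that level in WT, and genes of 2 lists (potassium handling, K2P partners), of which 1 is counted but not reported singly here. Cells were clustered with Seurat 5.3.0 (10 components, resolution 0.8) without Kcn genes and genes of the study's comparison tables, and clusters were named from fixed markers; scoring over 4 marker lists was chosen after seeing the clusters. Means over cells were compared by ratio with 1 CPM added. Sessions entered only as alternatives, with edgeR 4.0.16 and DESeq2 1.42.0 on gene table counts summed per session, and with exact permutation. The edgeR test was tried on simulated data, where in IMC-like cells it recovered 11 of 100 genes changed 16-fold. Thinning, other clusterings, depth filters and leaving out a run date were also tried.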

Additional observations from a re-analysis of the deposited data

Results flagged for a closer look

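Of 5 groups of 4 to 10 sessions tested, 2 held a session that stood far from the others. Only groups whose highest session reached 10 CPM were tested, so that no chance rate can be set beside this count. Kcnk1 in Slc26a4-/- IMC-like cells was 10.92 CPM in 1 of 7 sessions, the next being 1.052 CPM. That session held the 1 such cell with 10 or more counts, at 63.17 CPM. Kcnk5 in WT SC-like cells was 79.63 CPM in 1 of 4 sessions, the next being 2.92 CPM.

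In the clusters without a cell type name, which enter no comparison, several Kcnk genes were above 10 CPM. In the Slc4a1-led cluster WT cells averaged 10.1 CPM of Kcnk1, 77.63 CPM of Kcnk2 and 14.1 CPM of Kcnk12, and Slc26a4+/- cells 25.01 CPM of Kcnk6 and 33.08 CPM of Kcnk12. The Kcnk2 value comes almost whole from 1 cell at 5122.9 CPM. In the Crhbp-led cluster Kcnk1 averaged 30.22 CPM in 11 WT cells and 173.5 CPM in 2 Slc26a4-/- cells, and Kcnk5 averaged 59.95 CPM in WT and 72.15 CPM in 4 Slc26a4+/- cells. The Kcnk5 mean in these WT cells, from 2 of 11 cells, was close to the 65.72 CPM of WT SC-like cells.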

How the results depend on the processing

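Of the alternative values of the comparisons and of the Kcnk13 ratio in Slc26a4-/- IMC-like cells, 96 stayed and 27 moved. Staying meant within 1.5 times the reported count or within the replicate spread. No called value changed sign. Of the alternative values of the other single-gene ratios, 200 stayed and 18 moved. Among uncalled ratios, those of Kcnk1 and Kcnk5 between Slc26a4-/- and WT pendrin cells changed sign: Kcnk1 from -0.01 to -1.12 and 1.06 within the second and the fourth run dates, and Kcnk5 from -0.42 to 4.94 and 5.15 there and 9.54 in edgeR, where WT was at 0 in those run dates and the size is no bound. The cause was not tested. The count of members present in WT, 2, became 4 with 15 components and 4 at a level of 5 CPM. The count called in Slc26a4-/- IMC-like cells, 1, became 2 within the second run date and 2 with the Slc4a1-led cluster added. The log2 ratio of Kcnk13 there, 2.67, was 5.17 and 6.61 within the second and the fourth run dates, 12.04 in edgeR, 29.04 in DESeq2 and 5.46 over sessions, and 1.97 to 5.91 when 1 run date was left out, highest without the third, which holds the 3 WT cells with the transcript. In Slc26a4-/- pendrin cells the count, 0, became 1 by marker score, 1 with 15 components, 2 within each shared run date, 3 in SC-like cells alone and 1 in RC-like cells alone. For Slc26a4+/- the IMC-like count, 0, became 1 at resolutions 0.4 and 1.2 and with 15 components, and the pendrin count, 0, became 1 with pooled counts, 1 with 15 components, 2 within the fourth run date and 1 in RC-like cells alone; without 1 run date both ran from 0 to 1. In MC-like cells the count, 0, became 1 by marker score.

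WT and Slc26a4-/- MC-like cells shared the second run date but not the fourth. Session models were not run for MC-like cells, with 3 WT and 1 Slc26a4-/- sessions. No paired analysis was possible because the replicate numbers only count cells and pair none between genotypes. In edgeR simulations of Slc26a4-/- against WT, 1 of 100 genes changed 4-fold was recovered in IMC-like cells and 0 in pendrin cells, and 11 and 0 of those changed 16-fold, so that edgeR over sessions could rarely see differences of these sizes; DESeq2 was not simulated. Genotype and run date overlap in part, and no label says which cells share a mouse.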
